A study of Mus musculus with 4 samples.

Results

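The transcripts described here encode the chains of 4 cytokine receptors of CD8+ T cells, Ifnar1 and Ifnar2, Ifngr1 and Ifngr2, Il18r1 and Il18rap, Il12rb1 and Il12rb2, together with Ifng, the cytokine that these receptors induce or bind. The 9 genes were set by symbol as the chains of these receptors and Ifng, with no threshold on a measured value, and all 9 were among the 32285 genes measured. Single-cell RNA was read from CD8+ PD-1+ CD44+ T cells sorted from tumor-draining lymph nodes (TdLN) of female C57BL/6 mice, 6 weeks old at purchase, that carried B16F10GP melanomas, a B16F10 line made to express a viral glycoprotein by lentiviral transduction. The treatments were local irradiation of a tumor with an antibody against PD-L1 (RT + αPD-L1), irradiation alone (RT), the antibody alone (αPD-L1) and none (Control, tumor-bearing and untreated), and treated mice were sampled on day 7. Each treatment was 1 library that pooled 5 mice with hashtag antibodies, so that the mouse is the replicate and library and treatment cannot be told apart.

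Type I interferons bind a receptor of the chains Ifnar1 and Ifnar2, whereas IFN-γ is bound by Ifngr1 and needs Ifngr2 to signal; both receptors act through Jak kinases and STAT proteins. IL-12 is bound by Il12rb1, a chain shared with the IL-23 receptor, and Il12rb2, which recruits Stat4. IL-18 is bound by Il18r1, and Il18rap completes the receptor, which signals through Myd88. T cells that have met antigen can answer IL-12 and IL-18 together with IFN-γ release without renewed contact with antigen, and the question followed here is where these receptor transcripts lay in the TdLN population and whether they differed between treatments.

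After filtering and assignment to a mouse, 38083 cells were compared (9617 in RT + αPD-L1, 8862 in RT, 10659 in αPD-L1 and 8945 in Control). A further 1092 cells of a γδ T cell-like and a dendritic cell-like cluster were left out, and 1153 barcodes occurred in at least 2 libraries. Not all γδ T cell-like cells were thereby removed. A finer clustering, at Leiden resolution 1.0, placed 0.705% to 1.80% of each mouse's compared cells in another γδ T cell-like cluster. The mice ranged from 120 cells and 1075402 unique molecular identifiers (UMIs) in RT mouse 4 to 4689 cells and 38146200 UMIs in RT + αPD-L1 mouse 3, which supplied 48.8% of its library's compared cells. These sizes depended on how the hashtags were read. With HTODemux, the hashtag call named in the study's methods, RT + αPD-L1 mouse 3 had 2394 compared cells. Control mouse 1 then had 433 instead of 2113, and RT mouse 1 had 107 instead of 837. Cd8a, Cd8b1 and Cd3e each had a UMI in 88.4% to 97.3% of the compared cells of every library, Pdcd1 in 12.5% to 16.1% and Cd44 in 28.5% to 34.6%. RT + αPD-L1 mouse 3 stood apart in several member genes, and the calls of member genes are given with and without it.

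In the mm10 build, with strand + for all but Il12rb2, Ifnar2 (chromosome 16, 91372783 to 91405589), Ifnar1 (chromosome 16, 91485238 to 91507441) and Ifngr2 (chromosome 16, 91547072 to 91565623) lie in this order on the same stretch of chromosome, Il18r1 (chromosome 1, 40465552 to 40500854) and Il18rap (chromosome 1, 40515362 to 40551705) lie close together, and Ifngr1 (chromosome 10, 19591949 to 19610229), Ifng (chromosome 10, 118441046 to 118445892), Il12rb1 (chromosome 8, 70808449 to 70821424) and Il12rb2 (chromosome 6, 67291318 to 67376188, strand −) stand apart. RefSeq promoter windows of GRCm38.p6, from 250 bases before to 50 bases after a gene start, were matched for 8 of the 9 genes (10 windows), and Il12rb1 was not matched. The windows of 3 genes whose level differed between treatments are printed to show the sequence at their starts, 5′ to 3′ on the gene's strand, with matches to the STAT-binding GAS motif TTCNNNGAA in capitals. They are Il12rb2 (chr6:67376139-67376438, strand −), Il18rap (chr1:40515112-40515411, strand +) and Ifngr1 (chr10:19591699-19591998, strand +).
Il12rb2: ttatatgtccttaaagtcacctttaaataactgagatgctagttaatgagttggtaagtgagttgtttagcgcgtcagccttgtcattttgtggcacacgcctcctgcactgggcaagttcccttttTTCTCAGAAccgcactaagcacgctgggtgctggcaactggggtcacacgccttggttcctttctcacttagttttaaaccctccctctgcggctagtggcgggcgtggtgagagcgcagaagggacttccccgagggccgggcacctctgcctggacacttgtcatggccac
Il18rap: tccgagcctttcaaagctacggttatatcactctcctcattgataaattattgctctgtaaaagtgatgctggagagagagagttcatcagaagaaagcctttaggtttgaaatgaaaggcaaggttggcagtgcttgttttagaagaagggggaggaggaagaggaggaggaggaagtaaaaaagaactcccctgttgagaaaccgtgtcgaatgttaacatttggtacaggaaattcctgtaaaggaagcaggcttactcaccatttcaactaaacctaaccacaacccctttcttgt
Ifngr1: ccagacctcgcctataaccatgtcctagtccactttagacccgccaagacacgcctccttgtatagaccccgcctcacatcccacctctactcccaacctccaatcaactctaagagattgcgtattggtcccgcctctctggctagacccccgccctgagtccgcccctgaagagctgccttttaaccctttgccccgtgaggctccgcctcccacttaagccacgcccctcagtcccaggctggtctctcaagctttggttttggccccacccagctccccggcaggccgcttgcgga

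The GAS motif, which reads the same on both strands, was found in 5 of the 8 matched genes, in a single window of each, among 10 windows searched. Counted by window and not by gene, it was in 8.3% of all 32851 RefSeq mouse windows of the same length. The Il12rb2 window holds TTCTCAGAA starting 123 bases before the start. The Il18rap and Ifngr1 windows hold no match. The other matches, shown to let the central bases be compared, were in Ifnar1 (5 bases before the start), Ifnar2 (214), Il18r1 (219 and 152, in the third of its 3 windows) and Ifng (249).
Ifnar1: TTCACGGAA
Ifnar2: TTCCTGGAA
Il18r1, far match: TTCTGGGAA
Il18r1, near match: TTCCCAGAA
Ifng: TTCAGAGAA

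The interferon-stimulated response element GAAANNGAAA, searched on both strands as GAAANNGAAA and TTTCNNTTTC, was in none of the 10 windows and in 3.44% of all windows, and the T-box motif TCACACC, searched on both strands, was in none of the 10 windows and in 3.98% of all. None of these matches was tested for binding.

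Levels are given in CPM, the UMI counts of a gene scaled to the same UMI total in every mouse. Over whole mice, receptor transcripts were called against Control in the combination and in neither single treatment. In RT + αPD-L1 against Control, 4 of the 9 genes were higher at an adjusted p under 0.05 (edgeR quasi-likelihood test, 5 mice each, adjusted over 11986 genes) and none was lower, where 6.02% of all tested genes were called higher. These were Il12rb2, Il18rap, Ifngr1 and Il12rb1. The median log2 fold change of the 9 genes was 0.46, and that of all tested genes −0.01. A sum over a mouse's cells cannot tell a larger share of cells with a transcript from more transcript per cell, and values within clusters follow further down.

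**Figure D1:**
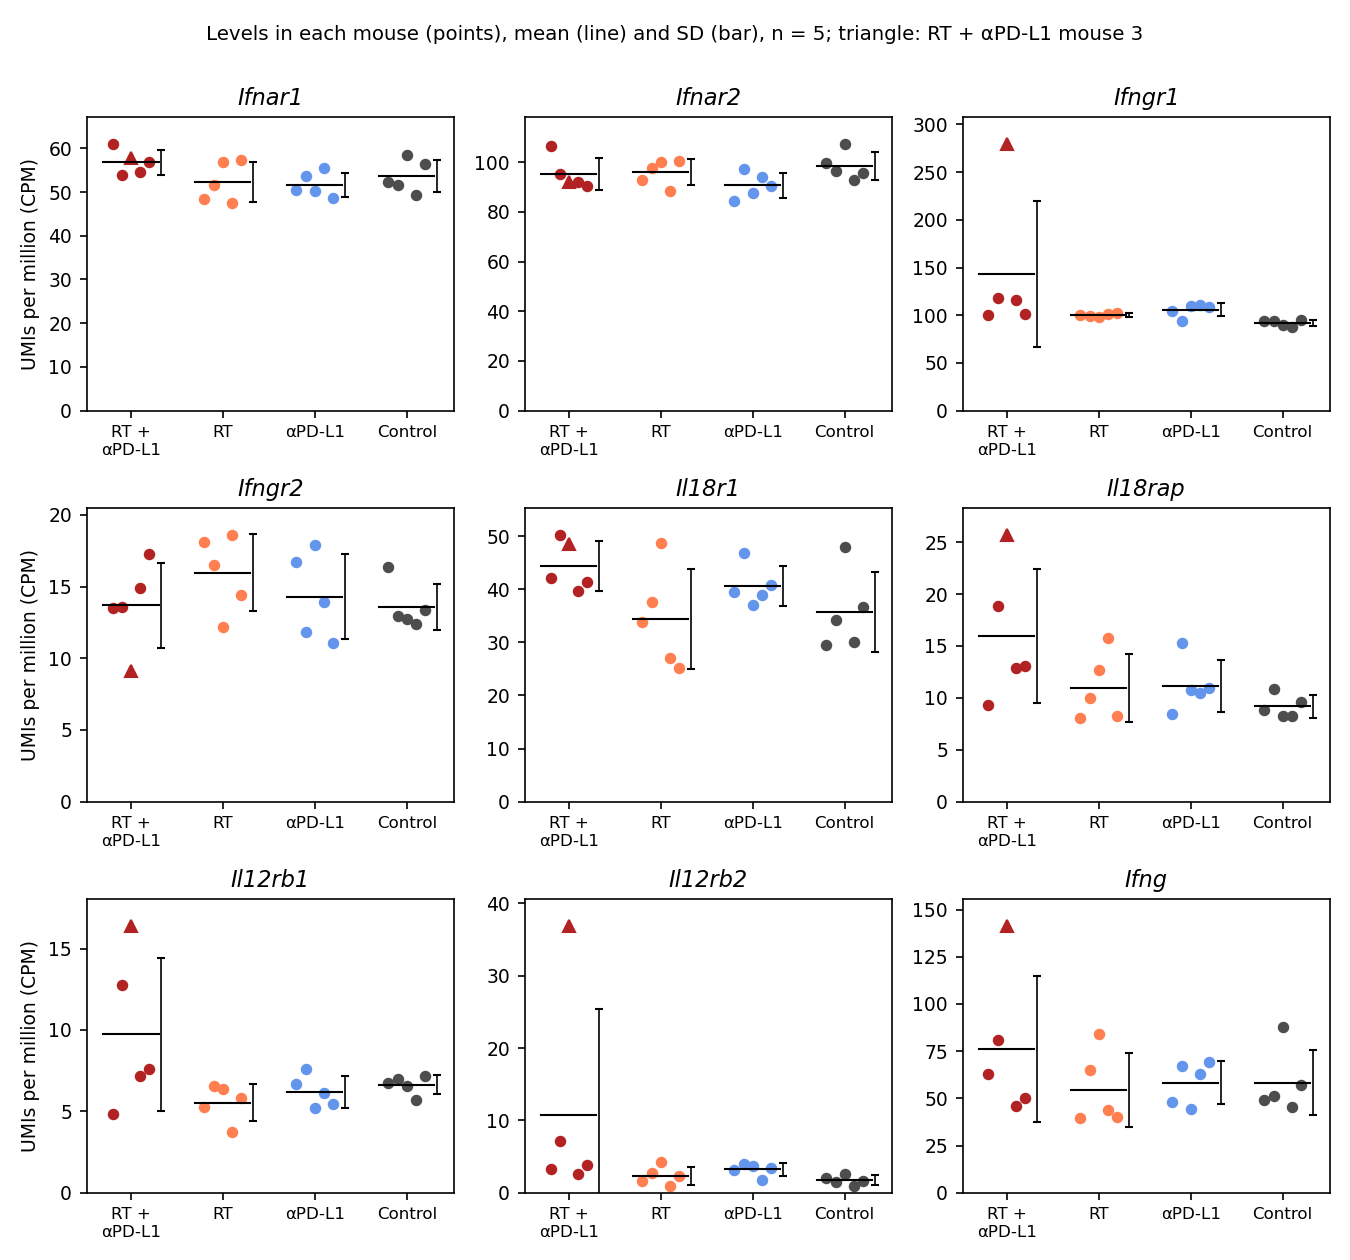
Level of each gene in CPM (vertical axes from 0) in every mouse, by treatment (RT + αPD-L1, RT, αPD-L1, Control). Points are mice (RT + αPD-L1 mouse 3 a triangle), horizontal marks are means over 5 mice and bars are SDs, cut at 0 where they reach below it. RT + αPD-L1 mouse 3 lies at 279.6 CPM of Ifngr1 and 36.9 CPM of Il12rb2, above every other mouse.

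Neither chain of the type I interferon receptor passed the test in any comparison. Ifnar1 had 61.0, 54.0, 57.8, 54.5 and 56.8 CPM in RT + αPD-L1 mice 1 to 5, against 52.3, 51.6, 58.5, 49.4 and 56.4 CPM in Control mice. Ifnar2, the chain with which Ifnar1 pairs, had 106.4, 95.3, 92.3, 92.2 and 90.6 CPM in RT + αPD-L1 mice, against 99.6, 96.7, 107.4, 92.7 and 95.5 CPM in Control mice. The ranges overlapped for both chains. The 95% interval of the log2 fold change, RT + αPD-L1 over Control, ran between −0.02 and 0.19 for Ifnar1 and between −0.13 and 0.05 for Ifnar2, the narrowest among the 9 genes.

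Ifngr1, the ligand-binding chain of the IFN-γ receptor, was higher in RT + αPD-L1. It had 100.1, 117.9, 279.6, 115.9 and 101.6 CPM in RT + αPD-L1 mice 1 to 5 and 100.7, 98.9, 97.7, 101.4 and 102.0 CPM in RT mice. αPD-L1 mice had 104.1, 94.1, 110.0, 110.5 and 108.7 CPM, and Control mice 93.7, 93.6, 90.2, 87.6 and 95.2 CPM. Mouse 3 lay far above its group, while the other 4 RT + αPD-L1 mice lay just above the Control range. All 5 RT + αPD-L1 mice were above all 5 Control mice, as were 2.47% of all tested genes, and all 5 RT mice were as well, as were 1.51% of all tested genes, whereas 4 of 5 αPD-L1 mice were above all Control mice. The log2 fold change was 0.69 ± 0.20 (SE, adjusted p = 0.0309) in RT + αPD-L1, 0.12 ± 0.20 (adjusted p = 0.917) in RT and 0.20 ± 0.20 (adjusted p = 0.722) in αPD-L1, each over Control, and these comparisons share the Control mice. Without mouse 3, Ifngr1 was still called at a smaller change of 0.26 (adjusted p = 0.018), in a fit that called 3.32% of genes higher. Leaving out any of the 5 Control mice put the adjusted p between 0.0533 and 0.0672.

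Ifngr2, which transduces the IFN-γ signal, did not share the call of its partner. It had 13.5, 13.6, 9.12, 14.9 and 17.3 CPM in RT + αPD-L1 mice, against 16.3, 13.0, 12.8, 12.4 and 13.3 CPM in Control mice, and the groups overlapped. Mouse 3, the highest of all 20 mice in Ifngr1, was the lowest of all 20 in Ifngr2. The log2 fold change over Control was −0.05 ± 0.16 (SE, adjusted p = 0.928).

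Il18r1, the IL-18-binding chain, had 42.1, 50.2, 48.6, 39.7 and 41.3 CPM in RT + αPD-L1 mice 1 to 5, against 29.5, 34.3, 48.0, 30.1 and 36.6 CPM in Control mice. Of the RT + αPD-L1 mice, 2 lay above all Control mice, and Control mouse 3 lay within the RT + αPD-L1 range. Its log2 fold change was 0.35 ± 0.14 (SE, adjusted p = 0.136), and the 95% interval ran between 0.07 and 0.63.

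Il18rap, the accessory chain without which IL-18 binding gives no signal, was higher in RT + αPD-L1. It had 9.32, 18.8, 25.7, 12.8 and 13.0 CPM in RT + αPD-L1 mice and 8.04, 10.0, 12.7, 15.8 and 8.27 CPM in RT mice. αPD-L1 mice had 8.43, 15.2, 10.8, 10.5 and 10.9 CPM, and Control mice 8.84, 10.9, 8.27, 8.27 and 9.61 CPM. Mice 2 to 5 of RT + αPD-L1 lay above all Control mice, and mouse 1 lay within the Control range. Over Control the log2 fold change was 0.91 ± 0.21 (SE, adjusted p = 0.00892), and without mouse 3 it was 0.62 (adjusted p = 0.057). Over the single treatments it was 0.79 ± 0.21 against RT (adjusted p = 0.0411) and 0.59 ± 0.20 against αPD-L1 (adjusted p = 0.155).

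Il12rb1, the IL-12 receptor chain shared with the IL-23 receptor, had 4.81, 12.7, 16.4, 7.18 and 7.61 CPM in RT + αPD-L1 mice and 5.26, 6.55, 6.36, 3.72 and 5.81 CPM in RT mice. It had 6.67, 7.62, 5.18, 6.13 and 5.45 CPM in αPD-L1 mice and 6.76, 6.98, 6.55, 5.71 and 7.20 CPM in Control mice. Mice 2 and 3 lay far above the Control range, mouse 5 just above it, mouse 4 at its upper end and mouse 1 below all Control mice. Its log2 fold change over Control was 0.70 ± 0.21 (SE, adjusted p = 0.0363). It was 0.39 without mouse 3 (adjusted p = 0.232), and the call was also lost without RT + αPD-L1 mouse 2 or without any of the Control mice.

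Il12rb2, the signaling chain of the IL-12 receptor, had the largest fold change of the 9 genes. It had 3.31, 7.09, 36.9, 2.60 and 3.81 CPM in RT + αPD-L1 mice and 1.61, 2.72, 4.19, 0.930 and 2.302 CPM in RT mice. αPD-L1 mice had 3.16, 4.01, 3.76, 1.81 and 3.41 CPM, and Control mice 2.08, 1.46, 2.64, 0.984 and 1.67 CPM. Mouse 3 was far above all others, mice 1, 2 and 5 lay above all Control mice by less, and mouse 4 fell just under the highest Control mouse. The log2 fold change over Control was 2.88 ± 0.58 (SE, adjusted p = 0.00385), and it was 1.35 without mouse 3 (adjusted p = 0.0207). The call held in each of the 20 fits that left out a mouse. In αPD-L1, 4 of 5 mice lay above all Control mice, with a log2 fold change of 0.89 ± 0.66 (SE, adjusted p = 0.591).

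Ifng had 63.1, 80.7, 141.2, 45.8 and 49.9 CPM in RT + αPD-L1 mice and 39.6, 64.9, 84.3, 43.7 and 40.3 CPM in RT mice. αPD-L1 mice had 48.3, 66.96, 44.4, 62.9 and 69.3 CPM, and Control mice 48.9, 51.3, 88.0, 45.7 and 57.2 CPM. All 4 groups overlapped, and mouse 3 of RT + αPD-L1 was the only mouse above the highest Control mouse. Over Control the log2 fold change was 0.46 ± 0.26 (SE, adjusted p = 0.302), and 0.08 without mouse 3 (adjusted p = 0.912).

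**Figure D2:**
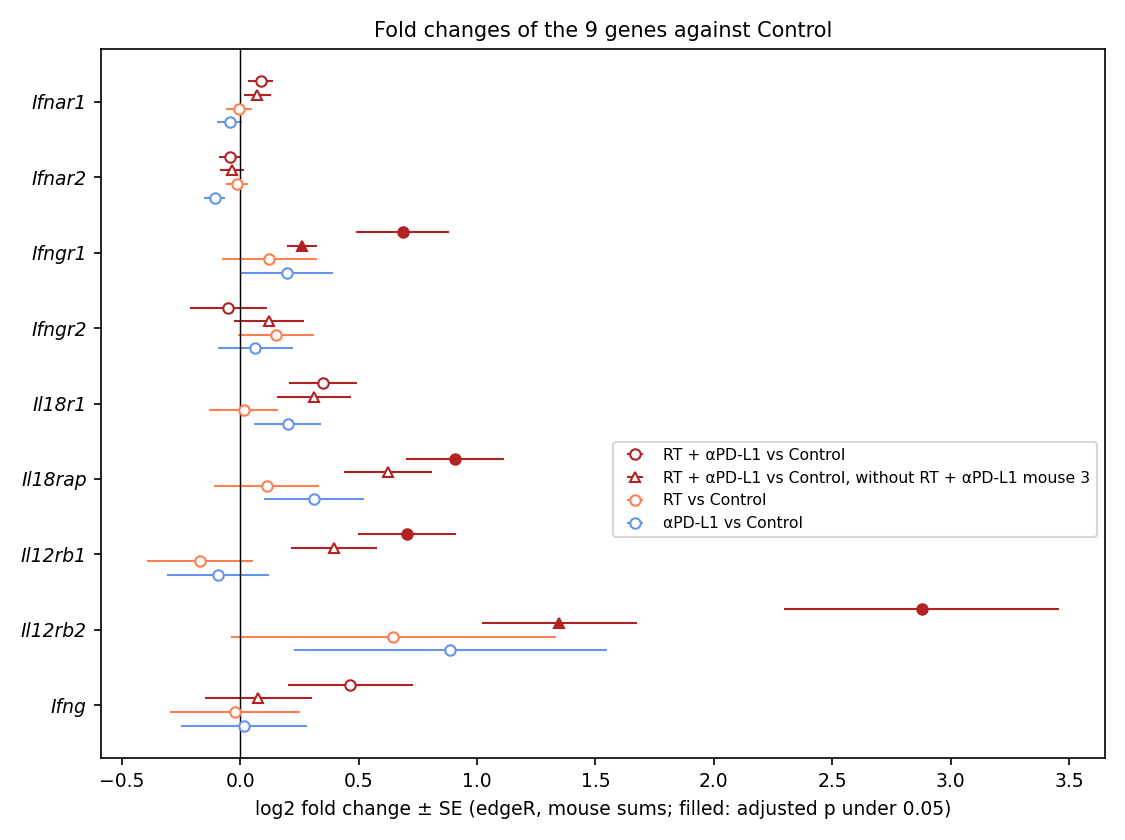
Log2 fold change (horizontal axis) of the 9 genes in RT + αPD-L1, RT and αPD-L1 over Control from the edgeR fit of 20 mice (circles), and in RT + αPD-L1 without mouse 3 (triangles); bars are SEs, and filled symbols passed an adjusted p under 0.05. The filled circles are those of Il12rb2 (2.88), Il18rap (0.91), Il12rb1 (0.70) and Ifngr1 (0.69) in RT + αPD-L1, and the filled triangles those of Il12rb2 (1.35) and Ifngr1 (0.26).

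Neither treatment alone gave a call. In RT against Control, 0 of the 9 genes were called (background 0.1% of genes in either direction), with 0 at an unadjusted p under 0.05 in edgeR and 0 calls in DESeq2. In αPD-L1 against Control it was again 0 (background 0.459%), with 1 gene, Ifnar2, at an unadjusted p under 0.05 (log2 fold change −0.11 ± 0.05, SE) and 0 calls in DESeq2. The combination was higher than RT in 3 genes (background 2.54%), which were Il18rap, Il12rb1 and Il12rb2, and higher than αPD-L1 in 2 genes (background 2.14%), which were Il12rb1 and Il12rb2. For Il12rb2 the log2 fold change was 2.23 ± 0.56 over RT (adjusted p = 0.0283) and 1.99 ± 0.53 over αPD-L1 (adjusted p = 0.0476), and for Il12rb1 it was 0.87 ± 0.22 (adjusted p = 0.0266) and 0.80 ± 0.21 (adjusted p = 0.0445). Without RT + αPD-L1 mouse 3 no member was called against RT or against αPD-L1. Other mice mattered as well. Of the 20 fits that left out a mouse, the call against αPD-L1 was lost in 17 for Il12rb2 and in 16 for Il12rb1, among them every fit without a Control mouse or an RT mouse, and the call against RT was lost in 11 for Il18rap, 5 for Il12rb1 and 4 for Il12rb2. How far the combination exceeded what RT and αPD-L1 add up to was called for 0 of the 9 genes in edgeR, where 0.934% of all genes were called in either direction, and for 0 in DESeq2. This excess had an unadjusted p under 0.05 for 1 gene, Il12rb1 (log2 excess 0.97 ± 0.31, SE, adjusted p = 0.149).

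RT + αPD-L1 mouse 3 supplied 12.6% of all UMIs compared. It held 1406 of the 2182 Il12rb2 UMIs of the study (64.4%), against 28.7% of the Ifngr1, 25.8% of the Ifng, 25.7% of the Il12rb1 and 24.7% of the Il18rap UMIs, and it was the highest of 20 mice in all 5 of these genes. Its share of Ifnar1 (13.5%), Ifnar2 (12.2%) and Il18r1 (15.4%) was near its share of UMIs, and that of Ifngr2 was 8.51%. It was the highest mouse in each of the 9 clusters for Ifngr1, in 7 clusters for Il12rb2, in 4 for Ifng, in 3 for Il18rap and in 2 for Il12rb1. Its mitochondrial share (1.57%) was the lowest of the 20 mice, which reached 2.05%. Summed natural killer cell markers were 18.6 CPM in this mouse, the highest of the RT + αPD-L1 mice (lowest 5.56 CPM), against 5.94 to 11.4 CPM in Control mice. RT mice ranged from 3.72 to 21.3 CPM, so this mouse was not the highest of all. Summed γδ T cell markers were 32.0 CPM, the highest of all 20 mice, where RT + αPD-L1 mice began at 13.3 CPM and Control mice lay between 14.2 and 23.5 CPM. Every one of the 5 natural killer and 9 γδ markers had a UMI in each treatment group, and the part of these cells in the results was not tested.

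The 45 other genes of these pathways included ligands, kinases, transducers, inhibitors and related receptors, and 35 of them were expressed highly enough to be tested. In RT + αPD-L1 against Control, 15 of the 35 were higher and none was lower (background 6.02% higher), with a median log2 fold change of 0.19. Stat2 (log2 fold change 1.20, edgeR, adjusted p = 0.00149) and Irf9 (0.54, adjusted p = 0.00217), which join in the transcription factor complex of type I interferon signaling, were higher, as were Stat3 (0.39, adjusted p = 0.0371) and Stat4 (0.33, adjusted p = 0.0296), the transducer of IL-12. None of the 3 kinases Jak1, Jak2 and Tyk2 and none of the 6 IL-18 adaptors and kinases was called.

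Of 6 inhibitors, 4 were higher. Usp18, which blocks type I interferon signaling at the receptor, averaged 102 ± 86.9 CPM in RT + αPD-L1 and 16.8 ± 8.30 CPM in Control (SD, n = 5 each), with a log2 fold change of 2.64 ± 0.46 (SE, adjusted p = 0.00184). Socs1 (0.77, adjusted p = 0.0232), Socs3 (0.96, adjusted p = 0.0187) and the phosphatase gene Ptpn2 (0.14, adjusted p = 0.0487) were the others. Of 5 tested genes of the IFN-γ programme of T cells, Tbx21, encoding the transcription factor T-bet (1.09, adjusted p = 0.0429), Gadd45g (0.99, adjusted p = 0.0169) and Runx3 (0.33, adjusted p = 0.0189) were higher. Il18bp, listed with the ligands and encoding a secreted decoy that binds IL-18, averaged 2.84 ± 1.80 CPM in RT + αPD-L1 and 1.16 ± 0.212 CPM in Control (SD, n = 5 each), with a log2 fold change of 1.53 (adjusted p = 0.00961). Il10rb (0.17, adjusted p = 0.0344), a chain of the IL-10 receptor, and Il21r (0.19, adjusted p = 0.0264) were higher among 8 related receptors tested. Without mouse 3, Stat2, Irf9 and Usp18 were among the genes that kept their calls (background 3.32% higher), and 11 of the 15 lost them. Those lost were Stat3, Stat4, Socs1, Socs3, Ptpn2, Tbx21, Gadd45g, Runx3, Il18bp, Il10rb and Il21r, with adjusted p between 0.0558 and 0.244 in edgeR. Tbx21 then had a log2 fold change of 0.67, Gadd45g of 0.55, Socs3 of 0.50, Stat3 of 0.20 and Stat4 of 0.17. Neither RT (background 0.1%) nor αPD-L1 (background 0.459%) gave a call against Control among the 35.

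The members were unevenly spread over the 9 clusters of compared cells, which had been built without the members and the other pathway genes; clusters describe these cells and their differences were not tested. Cluster 1 was naive-like, cluster 2 effector- or memory-like, cluster 3 cycling-like, cluster 4 led by interferon-stimulated genes such as Ifit3 and Isg15, and cluster 5 chronically stimulated-like, led by Tnfrsf4 and Nrn1. Cluster 8 (led by Klra7, Trgv2 and Trdc) best met the marker list of Ly49+ CD8 T cells, although Trgv2 and Trdc belong to the γδ T cell list. Cluster 0 (led by Gm14085, H2-Oa and Sox4), cluster 6 (Srm, Xcl1 and Tnfrsf9) and cluster 7 (Gm26917, Kcnq1ot1 and Lncpint, with a median of 1704.5 UMIs per cell) were left unnamed. Cluster 7, whose cells had the fewest UMIs, had the highest mean of the 9 in 6 members. Its means stood clear of the next cluster for Ifnar1 (245 ± 50.5 CPM against 64.2 ± 5.03 in cluster 0), Ifnar2 (167 ± 30.7 against 111 ± 10.1 in cluster 0) and Il18r1 (189 ± 57.7 against 88.4 ± 21.4 in cluster 2). The SDs overlapped for Il18rap (52.7 ± 30.8 against 37.5 ± 12.0 in cluster 8), Il12rb1 (17.3 ± 12.4 against 11.3 ± 6.11 in cluster 4) and Il12rb2 (23.9 ± 41.3 against 14.5 ± 9.12 in cluster 8).

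**Figure D3:**
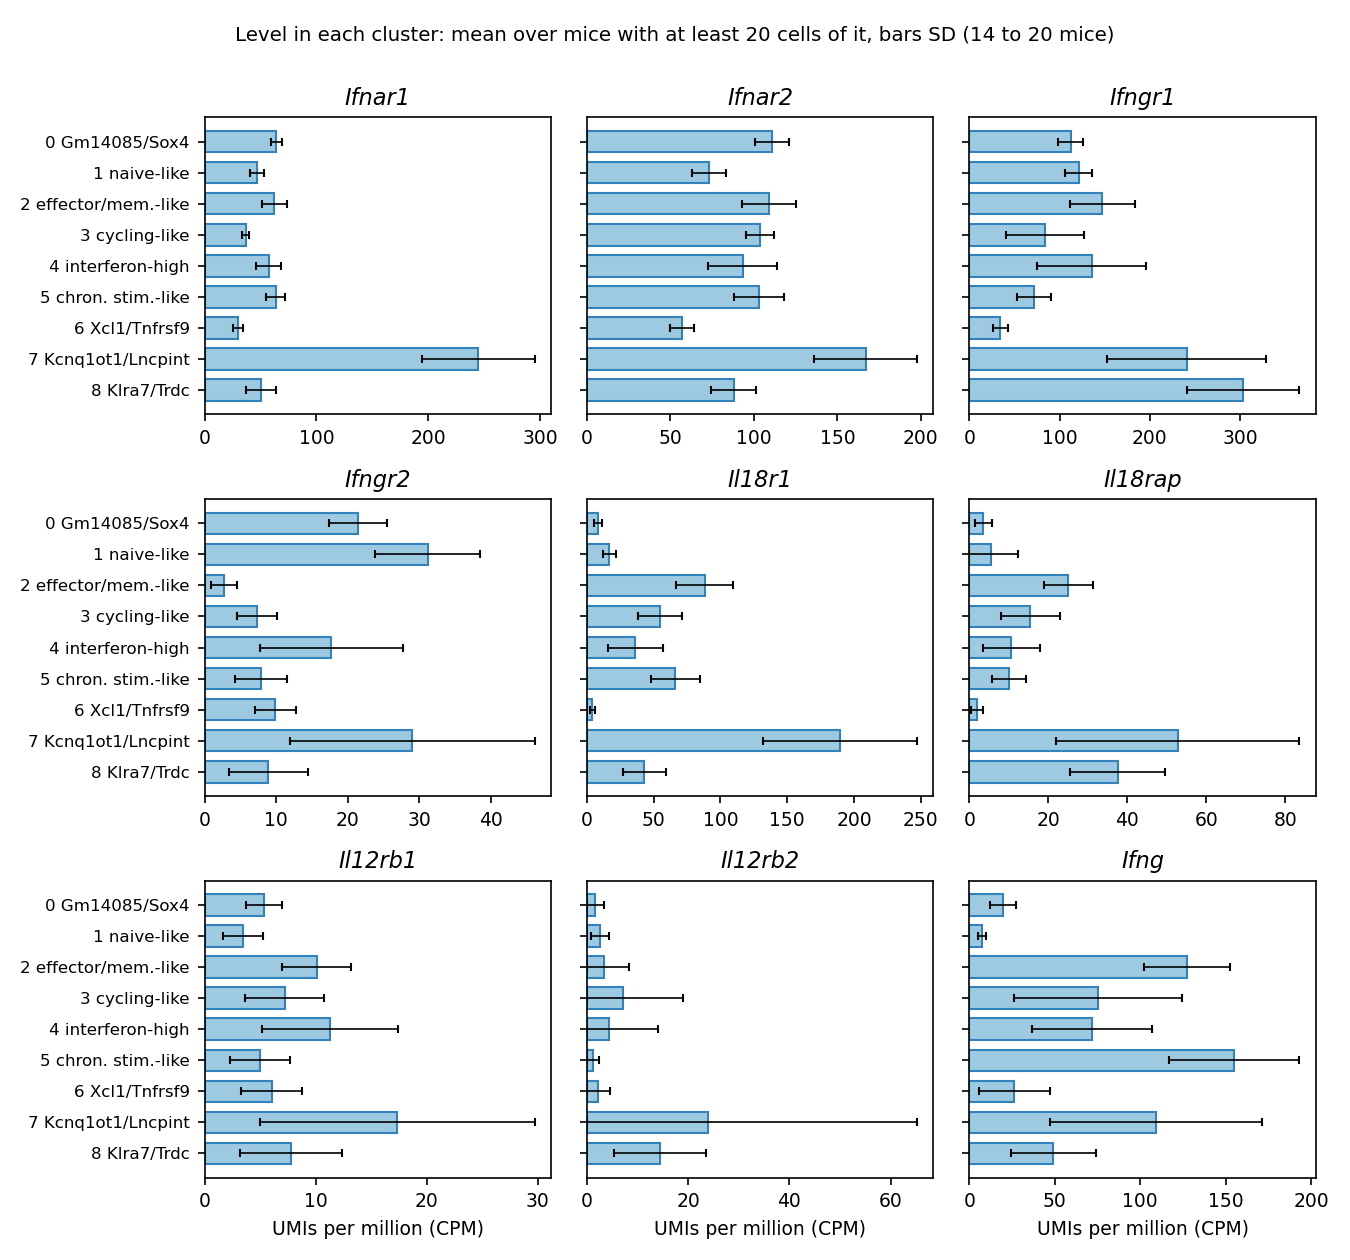
Level of each gene (horizontal axes, CPM from 0) in each of the 9 clusters of compared cells (vertical axes); filled bars are means over mice with at least 20 cells in the cluster and lines are SDs, drawn no lower than 0. Ifngr2 is highest in naive-like cluster 1 at 31.1 CPM and lowest in effector- or memory-like cluster 2 at 2.68 CPM, and Ifng is highest in cluster 5 at 155 CPM and lowest in cluster 1 at 7.44 CPM.

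Ifng averaged 155 ± 38.0 CPM in chronically stimulated-like cluster 5 (SD over 19 mice), 127 ± 25.1 CPM in effector- or memory-like cluster 2 and 7.44 ± 2.10 CPM in naive-like cluster 1. The SDs of clusters 5 and 2 overlapped, and both stood apart from cluster 1. Il18r1 was laid out in a similar way, with 88.4 ± 21.4 CPM in cluster 2, 66.2 ± 18.2 CPM in cluster 5 and 16.8 ± 5.03 CPM in cluster 1. Il18rap had 25.1 ± 6.16 CPM in cluster 2 and 37.5 ± 12.0 CPM in cluster 8, against 3.59 ± 2.12 CPM in cluster 0. Both IL-18 receptor chains were lowest in cluster 6, at 3.99 ± 1.73 CPM of Il18r1 and 2.04 ± 1.503 CPM of Il18rap, although that cluster was led by genes of recent activation such as Tnfrsf9.

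The IFN-γ receptor chains were highest in different clusters. Ifngr1 was highest in cluster 8 (303 ± 62.3 CPM) and lowest in cluster 6 (34.2 ± 8.15 CPM). Ifngr2 had its highest mean in naive-like cluster 1 (31.1 ± 7.30 CPM), was 21.4 ± 4.05 CPM in cluster 0, which together with cluster 1 held most of its UMIs (30.6% in cluster 0 and 28.7% in cluster 1), and was lowest in cluster 2 (2.68 ± 1.79 CPM). Cluster 2 was thus among the highest in Ifng and the lowest in Ifngr2. Il12rb1 was 11.3 ± 6.11 CPM in interferon-high cluster 4, 10.1 ± 3.12 CPM in cluster 2 and 3.47 ± 1.83 CPM in cluster 1, and Il12rb2 was 14.5 ± 9.12 CPM in cluster 8 and 1.12 ± 1.18 CPM in cluster 5. Of the cells left out, γδ T cell-like cells had 64.9 ± 17.4 CPM of Il12rb1 and 229 ± 43.6 CPM of Il18r1, and dendritic cell-like cells 75.1 ± 19.5 CPM of Ifngr2, each above its level in any compared cluster.

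The interferon-high cluster 4 made up 1.29%, 35.6%, 46.0%, 11.2% and 13.5% of cells in RT + αPD-L1 mice 1 to 5, against 0.945% to 6.82% in Control mice. Mice 2 and 3, with the largest shares, were also the highest RT + αPD-L1 mice in Il12rb1, Il18rap and Il12rb2, and mouse 1 had the smallest share and the lowest Il12rb1 and Il18rap of its group. To bring the mice to like cluster shares, the cluster levels of each mouse were averaged with the mean shares of cells in Control mice as weights. Clusters in which a mouse had under 10 cells were left out for that mouse and the weights rescaled. This left out cluster 4 for RT + αPD-L1 mouse 1 and Control mouse 4, each with 6 cells there. At least 97.2% of the weight was covered in each mouse. Values at a mouse's own shares are whole-mouse CPM instead, in which clusters count by their UMIs. Ratios at own and at Control shares thus differ in weighting as well as in cluster shares. For Ifnar1, the mean of Control mice itself was 53.7 CPM at own shares and 66.6 CPM at Control shares. Il12rb1, 1.47-fold higher in RT + αPD-L1 than in Control at the mice's own shares, was 1.06-fold higher at Control shares (exact permutation test, two-sided, p = 0.738). Ifngr1 kept a ratio of 1.29 (p = 0.0159, exact permutation test), against 1.55 at own shares, and Il12rb2 a ratio of 3.86 (p = 0.0317, exact permutation test), against 6.08, although the p of Il12rb2 was above 0.05 (exact permutation test, 0.0635) in 6 of the 10 runs that left out a mouse. Il18r1 had the same ratio of 1.24 at either set of shares (p = 0.0159 at Control shares, p = 0.0714 at own shares, exact permutation test), and Il18rap had 1.48 (p = 0.0635, exact permutation test), against 1.74. These p-values are unadjusted over 9 genes, and 5 against 5 mice can give no less than 0.00794. With a mouse left out, 4 against 5 mice can give no less than 0.0159 in this permutation test.

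**Figure D4:**
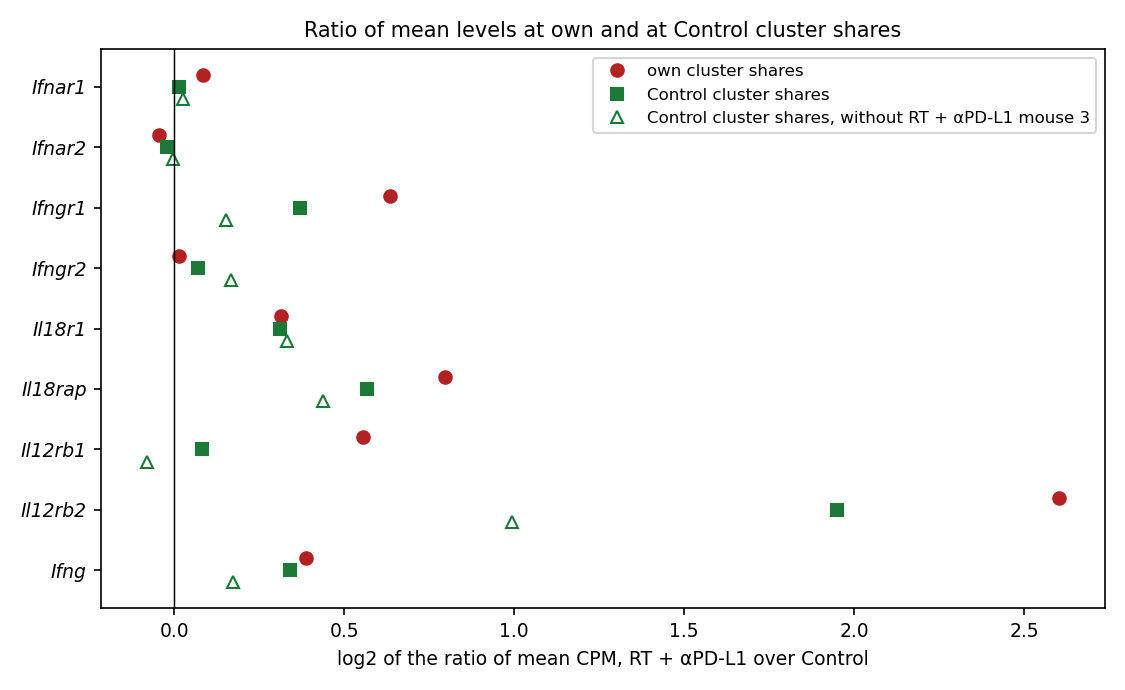
Log2 ratio of mean CPM in RT + αPD-L1 over Control (horizontal axis) for each gene, at the mice's own cluster shares (circles), at Control cluster shares (squares), and at Control cluster shares without RT + αPD-L1 mouse 3 (triangles). Circles use whole-mouse CPM, whereas squares and triangles weight clusters by shares of cells. Il12rb1 moves close to 0 at Control shares and Il18r1 stays in place.

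Without RT + αPD-L1 mouse 3, the ratio at Control shares was 1.11 for Ifngr1 (p = 0.0317, exact permutation test), 1.26 for Il18r1 (p = 0.0159), 1.99 for Il12rb2 (p = 0.0635), 1.35 for Il18rap (p = 0.127) and 0.946 for Il12rb1 (p = 0.667). Ifng had a ratio of 1.27 (p = 0.222, exact permutation test) with all mice and 1.13 (p = 0.444) without mouse 3. Il18r1 at Control shares was 50.2, 56.0, 48.0, 49.0 and 51.9 CPM in RT + αPD-L1 mice, against 38.5, 38.7, 48.4, 35.6 and 44.5 CPM in Control mice, and the ranges met at Control mouse 3.

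Within single clusters, 6 pairs of a member and a cluster were called higher in RT + αPD-L1 than in Control. In cycling-like cluster 3, Il12rb2 had 4.44, 12.7, 53.9, 1.96 and 8.07 CPM in RT + αPD-L1 mice, against 1.86, 1.47, 2.14, 0 and 2.68 CPM in Control mice. Mouse 4 alone lay within the Control range. The log2 fold change was 3.61 ± 0.69 (SE, edgeR, adjusted p = 0.00532), and Il18rap was also called there (1.12 ± 0.30, adjusted p = 0.0486), where 1.8% of genes were called higher. In cluster 7 (background 1.88%), Il18rap (1.21, adjusted p = 0.0422), Ifngr1 (0.80, adjusted p = 0.0372) and Ifng (1.20, adjusted p = 0.0235) were called, and in cluster 8 (background 1.9%) Ifngr1 (0.53, adjusted p = 0.0111). The calls in cluster 7 rest on few UMIs in some mice. RT + αPD-L1 mouse 1 had 26 cells and 52480 UMIs of all genes there, and Control mouse 4 had 44 cells and 87738 UMIs. No member was called in cluster 0 (background 0.782%), 1 (0.804%), 2 (0.439%), 4 (0.0274%), 5 (0.482%) or 6 (1.16%). In interferon-high cluster 4, Il18rap averaged 16.6 ± 4.72 CPM in RT + αPD-L1 and 5.28 ± 4.32 CPM in Control (SD, 4 mice each with enough cells), a log2 fold change of 1.64 ± 0.47 (SE, edgeR, adjusted p = 0.23). Most of these calls were also lost on leaving out other mice. Il18rap in cluster 3 lost its call in 7 of 10 fits that left out a mouse, and in cluster 7 Il18rap lost it in 6, Ifngr1 in 5 and Ifng in 4, while Ifngr1 in cluster 8 lost it in 2 of 9. Without RT + αPD-L1 mouse 3, 0 pairs were called; Il12rb2 in cluster 3 then had a log2 fold change of 2.03 (adjusted p = 0.147).

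Ifng in cluster 6 was called in RT + αPD-L1 against RT (log2 fold change 1.78 ± 0.39, SE, edgeR, adjusted p = 0.0122, background 0.696%). There it had 36.6, 21.8, 103.6, 24.7 and 15.6 CPM in RT + αPD-L1 mice 1 to 5, against 11.3, 11.8, 23.1 and 12.8 CPM in RT mice 1, 2, 3 and 5. Mouse 3 of the combination stood apart again, and mice 2 and 5 lay within the RT range. Without mouse 3 the log2 fold change was 0.62 (adjusted p = 0.873).

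The share of cells with a transcript was also taken. Each cell was thinned to 3000 UMIs, which left out 1008 cells in RT + αPD-L1, 819 in RT, 1021 in αPD-L1 and 769 in Control. Most cells of cluster 7, whose median of UMIs per cell lay under this depth, were thereby left out. Ifngr1 then had a UMI in 31.5 ± 8.24% of cells in RT + αPD-L1 and 24.6 ± 0.772% in Control (SD over 5 mice), or 49.99% and 46.3% without thinning. RT + αPD-L1 mice lay between 24.5% and 45.7% with a median of 29.5%, and Control mice between 23.5% and 25.5%. Ifng had a UMI in 11.5 ± 2.56% and 10.98 ± 2.70%, or 18.3% and 17.5% without thinning. Il12rb2 had a UMI in 2.33 ± 2.87% of cells in RT + αPD-L1 and 0.437 ± 0.332% in Control, or 5.04% and 1.35% without thinning, and the highest RT + αPD-L1 mouse had 7.37% where their median was 1.17%. In dendritic cell-like cells of the same libraries the share with an Il12rb2 UMI was 5.04% (7 of 139 cells) in RT + αPD-L1 and 1.19% (1 of 84 cells) in Control. These lay above the 4.18% and 0.477% of all compared cells, but rest on few cells. The Il12rb2 shares of compared cells thus cannot be told from this background, and were not read as expression in single cells. For Ifngr1, a receptor that dendritic cells are known to carry, the shares were 26.6% of dendritic cell-like and 37.1% of compared cells in RT + αPD-L1, and 26.2% and 24.95% in Control. Il18rap had a UMI in 2.16% of dendritic cell-like and 5.10% of compared cells in RT + αPD-L1, and in 2.38% and 2.56% in Control, so that its Control share cannot be told from this background. Il18r1 had 4.32% and 10.6% in RT + αPD-L1, and 4.76% and 8.02% in Control. The same dendritic cell-like cells had Ifng in 5.76% of cells in RT + αPD-L1 and 3.57% in Control, under the 12.9% and 10.6% of compared cells. Their median depth was 7020 and 6508 UMIs, against 6299 and 6956 UMIs in compared cells. They are no clean background, since 52.9% of them carried a Cd3e UMI and 60.7% a Cd8a UMI.

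Some cells held very many Ifng UMIs. Over all compared cells, 18.3% had an Ifng UMI, the top 1% held 28.7% of its UMIs, and the highest cell held 304. These counts and the next were taken without thinning, so that cells with more UMIs reach a fixed number more easily. In RT + αPD-L1 mouse 3, cluster 3 held 9457972 UMIs in 572 cells, and cluster 5 held 1751474 UMIs in 214 cells. Cells with at least 10 Ifng UMIs numbered 234, of which 89 were in cycling-like cluster 3 and 59 in chronically stimulated-like cluster 5, or 2.14% and 1.55% of their cells, and 0 of 7243 were in naive-like cluster 1. They made up 1.62% of the cells of RT + αPD-L1 mouse 3 and held 49.8% of its Ifng UMIs, against 0.162% to 1.01% of the cells of the other 19 mice. The top 1% of cells held 53.8% of Il12rb2 UMIs, 27.0% of Il12rb1, 26.1% of Il18rap, 10.7% of Ifngr1 and 8.04% of Ifnar1 UMIs. This share is also high for genes with few UMIs, since Il12rb1, with a share near that of Ifng, had no cell above 5 UMIs.

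Chains of one receptor were not equally likely to be found together. Over the 34466 cells with at least 3000 UMIs, thinned to that depth, 328 had a UMI of both Il18r1 and Il18rap, 2.98 times the 110 expected from the single shares in each mouse, and the ratio was above 1 in 19 of 20 mice. Within clusters the ratio was 1.96. The chains of the type I interferon receptor were close to expectation (ratio 1.09), as were those of the IFN-γ receptor (0.959). Il12rb1 and Il12rb2 were found together in only 33 cells, too few to describe. Their ratio could be formed in 18 mice, was above 1 in 4 of them and had a median of 0 over them.

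**Figure D5:**
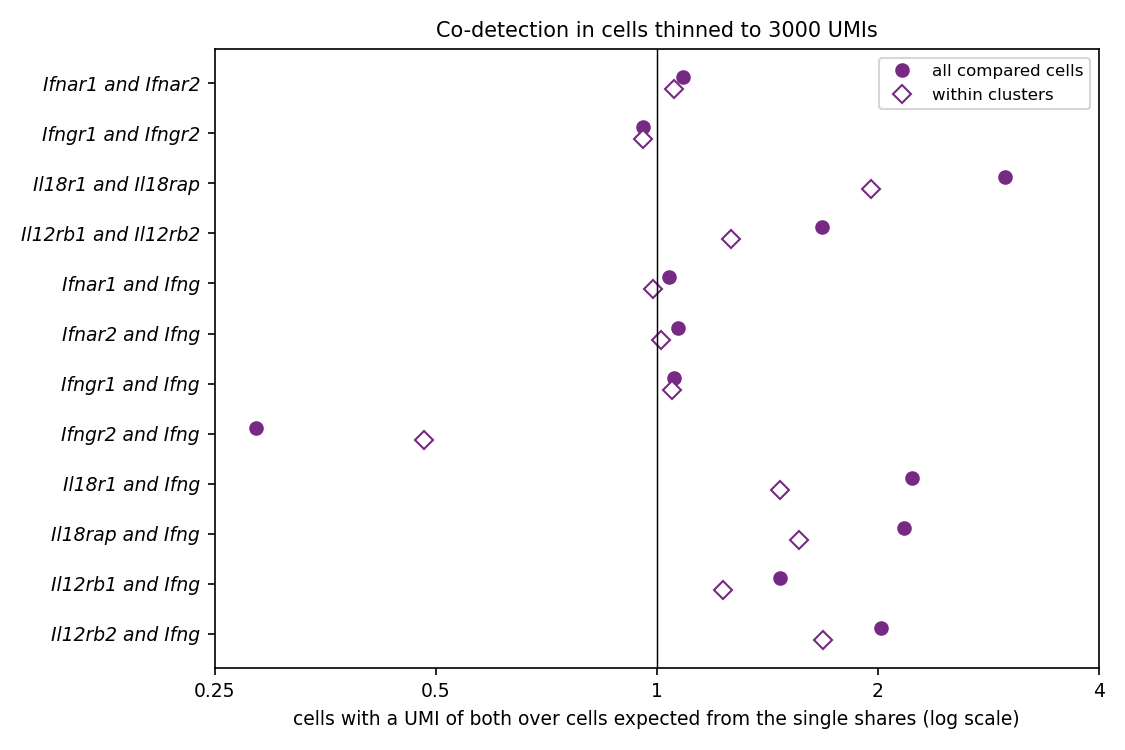
Number of cells with a UMI of both genes over the number expected from the single shares in each mouse (horizontal axis, log scale), for cells thinned to 3000 UMIs; filled circles take expectations in each mouse as a whole and open diamonds take expectations within clusters. Il18r1 with Il18rap lies furthest to the right at 2.98 and Ifngr2 with Ifng furthest to the left at 0.285.

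A UMI of an IL-18 receptor chain was found with an Ifng UMI more often than expected. The ratio was 2.23 for Il18r1 with Ifng, above 1 in 20 of 20 mice, and 2.17 for Il18rap, above 1 in 19 of 20 mice. Within clusters it was 1.47 for Il18r1 and 1.56 for Il18rap. Il12rb1 with Ifng had a ratio of 1.47, above 1 in 14 of the 19 mice where it could be formed, and 1.23 within clusters. Il12rb2 with Ifng had a ratio of 2.02, above 1 in 13 of 19 such mice. Within clusters it was 1.68, above both IL-18 receptor chains. Ifngr2, the chain that signals for IFN-γ, was found with Ifng in 49 cells where 172 were expected, a ratio of 0.285 that was above 1 in 0 of 20 mice, and within clusters the ratio was 0.482 and above 1 in 4 of 20. The ratios of Ifng with Ifnar1, Ifnar2 and Ifngr1 lay between 1.04 and 1.07. These are sparse counts that free RNA also enters, and the ratios are descriptions without a test.

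The genes most like each member were taken by the Pearson correlation of log2(CPM + 1) over the 20 mice, among genes with a mean of at least 10 CPM. The correlations are descriptions, since mice of a treatment share a library and UMI totals differ between mice. Ifngr1 was most like Gpr18 (r = 0.97, and 0.79 without RT + αPD-L1 mouse 3) and Stat4 (0.89, and 0.45 without it). Il12rb2 was most like Stat3 (0.90, and 0.74 without mouse 3) and Hopx (0.90, and 0.72). Il12rb1 was most like Psmb8, a subunit of the immunoproteasome (0.96, and 0.92), and Nmi (0.94, and 0.90), and Il18rap most like N4bp1 (0.93, and 0.88) and Gbp3 (0.91, and 0.84). For Ifng these were Etv6 (0.90) and Ppp1r12a (0.89), for Il18r1 Ctsd (0.87) and Serpina3g (0.85), for Ifngr2 Lef1 (0.86) and Rpl35 (0.84), for Ifnar1 2510039O18Rik (0.77) and Cant1 (0.76), and for Ifnar2 Isoc2b (0.77) and Pcgf1 (0.74). Over the means of the 9 clusters the closest genes were Kdm4c and Zfand3 for Ifnar1, Cyb561a3 and Tes for Ifnar2, Crybg1 and Gab3 for Ifngr1, Eng and Pdk1 for Ifngr2, Runx2 and Ahnak for Il18r1, Pim1 and Myo1f for Il18rap, Tgds and Capza2 for Il12rb1, 2410004B18Rik and Arsb for Il12rb2, and Casp1 and Tigit for Ifng, with r between 0.888 and 0.998.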

How the data were processed

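For each of 4 libraries the authors deposited unnormalized UMI counts of genes and hashtag antibodies by cell barcode, aligned to mm10. Version 6.1.2 of Cell Ranger stands in the matrix headers, while another version is named in the methods, and the labels name a 3′ kit. No strand or copy correction of the counts is given in the sources used here. The members, gene lists and tests were chosen with earlier results of these data known.

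Of 47820 barcodes, 43971 were kept, those that had 500 to 5000 genes, no more than 40000 UMIs and a mitochondrial share under 10%. They were given to a mouse when exactly 1 hashtag passed a limit set at the emptiest bin between its background and positive modes (39175 cells). This departs from the HTODemux call that the study's methods name, which was run as an alternative (Seurat 5.3.0). Barcodes with several hashtags, 7.42% to 8.85% per library, were dropped as doublets. Doublets within a mouse remain. Cells were clustered without the members and pathway genes on 2000 variable genes, 20 principal components and 15 neighbors at Leiden resolution 0.6 (scanpy 1.11.5, leidenalg 0.10.2), and clusters were named from marker lists.

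Counts were summed per mouse, and per mouse and cluster where a mouse had at least 20 cells, and tested with edgeR 4.0.16 (TMM, filterByExpr, quasi-likelihood, two-sided, Benjamini-Hochberg over all tested genes) in 1 fit of 20 mice. Called means an adjusted p under 0.05. The 95% intervals of log2 fold changes use the normal quantile of the standard error. Alternatives were HTODemux, all assigned cells, cells without the interferon-high cluster or above 20000 UMIs, no TMM, no filter, DESeq2 1.42.0, other clusterings and thinning depths, and leaving out each mouse. The text names the 9 members, every pathway gene called in RT + αPD-L1 against Control except 1 that is not reported here, and the 2 genes most like each member. The edgeR step was tested on simulated counts. UMI totals per mouse, between 1075402 and 38146200, set the precision, and a single CPM rests on about 1 UMI in RT mouse 4.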

Additional observations from a re-analysis of the deposited data

Results flagged for a closer look

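Within a treatment, 4 of the 36 sets of 5 mice held a mouse far from the other 4. The limit used is passed by about 1 in 20 independent sets of normally spread values. The 36 sets share their mice, whose UMI totals differ, so that this rate need not hold here. Ifngr1 in RT + αPD-L1 mouse 3 was 279.6 CPM, with the nearest mouse at 117.9 and the lowest at 100.1 CPM. Il12rb2 in the same mouse was 36.9 CPM, with the nearest mouse at 7.09 and the lowest at 2.60 CPM. Ifng in Control mouse 3 was 88.0 CPM, with the nearest Control mouse at 57.2 and the lowest at 45.7 CPM, and without this mouse the log2 fold change of Ifng in RT + αPD-L1 was 0.64. Ifngr2 in Control mouse 1 was 16.3 CPM, with the nearest Control mouse at 13.3 and the lowest at 12.4 CPM. The cause of these gaps was not tested.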

How the results depend on the processing

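Of 65 values of counts and chain pairs under other settings, 58 stayed close to the reported one, as did 105 of 140 with a mouse left out. Of the values of single members, 149 of 170 kept direction and call under other settings and 332 of 439 with a mouse left out, where 98 lost their call and 8 turned sign. Genes called in RT + αPD-L1 against Control over all genes numbered 1086, and 459 with HTODemux, 517 without the interferon-high cluster and 537 without RT + αPD-L1 mouse 3. Of the 9 genes, 4 were called against Control and 2 with HTODemux (Ifngr1 adjusted p = 0.0631, Il12rb1 adjusted p = 0.0792), with 2 to 4 when a mouse was left out. Against RT, 3 were called, 0 with HTODemux, 1 without the interferon-high cluster, and 0 to 4 with a mouse left out. Against αPD-L1, 2 were called, 1 with HTODemux and with all assigned cells, 0 without the interferon-high cluster and with DESeq2, and 0 to 2 with a mouse left out. The excess gave 0 to 1 with a mouse left out. The 6 calls within clusters became 0 to 9 and the 3 genes with an exact permutation p under 0.05 at Control cluster shares became 2 to 4. Il12rb1 against Control had an adjusted p of 0.0618 in DESeq2 and a log2 fold change of 0.40 (adjusted p = 0.235) without the interferon-high cluster. Small changes with no call turned sign: Ifnar1 was −0.011 without the interferon-high cluster, and Ifngr2 was 0.089 with HTODemux and 0.012 with all assigned cells, and lay between −0.13 and 0.12 with a mouse left out. At Control cluster shares the log2 ratio of Ifnar1 was −0.010 at Leiden resolution 1.0, and with a mouse left out Ifnar1 lay between −0.026 and 0.051, Ifnar2 between −0.059 and 0.012, Ifngr2 between −0.020 and 0.17 and Il12rb1 between −0.081 and 0.22. The cause was not tested. No paired analysis was possible because each treatment pooled its own 5 mice and the hashtag numbers tie no mouse of a library to a mouse of another. Il12rb1 and Il12rb2 rest on 2434 and 2182 UMIs in all, so that a mouse with few cells carries few of them.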

Other observations

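Among the cells left out of the comparisons, the γδ T cell-like cluster had 248 ± 91.4 CPM of Ifngr1 and 36.2 ± 11.3 CPM of Il18rap (SD over 12 mice), against 7.77 ± 10.9 CPM of Ifng. These cells thus carried both IL-18 receptor chains with little Ifng. Cluster 8 of the compared cells, whose leading genes include the γδ T cell genes Trdc and Trgv2, had 37.5 ± 12.0 CPM of Il18rap, 43.1 ± 16.1 CPM of Il18r1 and 49.2 ± 24.9 CPM of Ifng over 18 mice. In the dendritic cell-like cluster Il18rap was 10.1 ± 8.36 CPM and Il18r1 17.1 ± 10.2 CPM over 11 mice.

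Il18bp, the decoy of IL-18, averaged 2.84 CPM in RT + αPD-L1, 1.02 CPM in RT, 1.11 CPM in αPD-L1 and 1.16 CPM in Control, and its log2 fold change in RT + αPD-L1 over Control was 1.14 without mouse 3 (edgeR, adjusted p = 0.0747).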
